A study of Mus musculus with 18 samples.

Results

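Carboxylesterases are serine hydrolases that sit mostly in the lumen of the endoplasmic reticulum of hepatocytes and split carboxyl esters, both of lipids such as triacylglycerol and of drugs and pesticides. The mouse genome holds many copies of them, and members of the Ces1 and Ces2 groups are known in liver for releasing stored triacylglycerol, for limiting the secretion of very-low-density lipoprotein (VLDL) and for activating prodrugs. Here 10 of them, Ces1c, Ces1d, Ces1e, Ces1f, Ces1g, Ces2a, Ces2e, Ces3a, Ces3b and Ces4a, were followed among the 19057 gene symbols of the table. They were selected on their gene symbols with earlier RPKM results of these same livers in view, so the adjusted p-values and the counts of called genes below describe the list and are not independent evidence that it stands apart. The table held 19 carboxylesterase symbols in all.

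The livers came from ICR mice, an outbred strain, at 10 weeks of age (males by the study's methods, which do not describe the AOS and STZ+AOS groups), with 3 mice in each of 6 groups and 1 RNA-seq library per mouse. Con mice received a regular diet and saline. STZ mice received a single injection of streptozotocin, a toxin taken up by pancreatic beta cells that is used to model type 1 diabetes and can also reach the liver directly. AOS mice received alginate oligosaccharide at 10 mg/kg, a breakdown product of brown-algal alginate, and STZ+AOS mice received streptozotocin and the same AOS dose. A10-FMT mice received streptozotocin and then, by mouth, small-intestinal microbiota of donors that had been dosed with AOS at 10 mg/kg. The Con-FMT group was treated alike with microbiota of control donors. The donor content was pooled within each donor group, so all mice of a transplanted group shared 1 inoculum. Of the 6 groups, 4 thus carried streptozotocin, and only Con and AOS mice did not. Levels are given in RPKM (reads per kilobase of transcript, scaled to the mapped reads of the library), which allows genes of different length to be compared.

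All 10 genes lie on mouse chromosome 8, the Ces1 genes on the minus strand and the Ces2, Ces3 and Ces4 genes on the plus strand in a separate cluster further along. For the 5 genes that were lower in STZ than in Con (below), the 250 bases before the transcription start are shown where the RefSeq promoter table (GRCm38.p6) has an entry. In total 7 of the 10 genes matched that table, and Ces1d, Ces1f and Ces3a did not. The 4 that result are shown as the start regions of genes whose level fell, and they run 5′ to 3′ on the gene's own strand, with capitals marking a match on either strand to 1 of 3 motifs that liver transcription factors are known to bind: AGGTCA (the nuclear receptor half-site), TTGCNNAA (C/EBP) and GTTAAT (an HNF1 half-site).
Ces3b (chr8:105083505-105083754, plus strand): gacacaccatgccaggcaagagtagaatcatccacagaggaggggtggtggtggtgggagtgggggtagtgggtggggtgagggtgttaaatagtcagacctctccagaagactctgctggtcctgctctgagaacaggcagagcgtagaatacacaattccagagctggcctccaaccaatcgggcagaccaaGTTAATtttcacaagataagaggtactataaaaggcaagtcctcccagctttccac
Ces4a (chr8:105131550-105131799, plus strand): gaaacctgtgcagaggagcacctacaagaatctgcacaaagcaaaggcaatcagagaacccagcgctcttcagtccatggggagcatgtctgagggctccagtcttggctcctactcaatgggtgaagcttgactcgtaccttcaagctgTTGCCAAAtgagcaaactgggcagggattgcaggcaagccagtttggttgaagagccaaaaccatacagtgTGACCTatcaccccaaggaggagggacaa
Ces1e (chr8:93229620-93229869, minus strand): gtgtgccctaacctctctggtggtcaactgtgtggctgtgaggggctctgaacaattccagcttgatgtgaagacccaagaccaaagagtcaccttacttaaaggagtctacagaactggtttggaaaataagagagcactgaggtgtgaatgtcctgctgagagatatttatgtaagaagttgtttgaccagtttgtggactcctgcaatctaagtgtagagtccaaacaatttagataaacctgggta
Ces1c (chr8:93131284-93131533, minus strand): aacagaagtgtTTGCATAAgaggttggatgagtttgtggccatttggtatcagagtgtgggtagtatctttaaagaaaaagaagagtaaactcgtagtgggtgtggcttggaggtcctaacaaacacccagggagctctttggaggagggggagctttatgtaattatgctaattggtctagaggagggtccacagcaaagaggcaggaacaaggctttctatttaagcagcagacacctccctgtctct
The Ces3b window held the GTTAAT motif 56 bases before the start, and Ces4a held TTGCNNAA at 100 bases and AGGTCA at 29 bases before it. Ces1c held TTGCNNAA at 239 bases, and none of the 3 motifs was found in the Ces1e window. Matches in these windows did not overlap each other. Of the 7 promoters matched, 2 held AGGTCA, 4 held TTGCNNAA and 1 held GTTAAT, while 14.0%, 9.56% and 6.43% of the 32851 promoters in the table held them. The other matches were in Ces2a (AGGTCA and TTGCNNAA) and Ces2e (TTGCNNAA), neither of which was called in STZ against Con. Ces1g held none. The motifs thus did not sort the genes that fell from those that did not. As related genes, the promoters matched are not independent draws. A match describes the letters only.

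Before the comparisons, 1 library has to be set apart. In a principal component analysis of all genes tested, the first component (57% of the variance) placed STZ mice 1 and 2 at -45.9 and -46.4, the 3 STZ+AOS mice between -41.0 and -31.6, and the 3 Con mice between 37.6 and 42.6. STZ mouse 3 lay at -0.18, inside the range of the transplanted mice (-18.3 to 13.1). Correlation between the mice of a group was lowest in STZ (r from 0.951 to 0.983 across genes), and no 2 libraries held identical values. Values without STZ mouse 3 are therefore given for the counts of called genes and for the genes it moved most.

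On the scale tested, log2 of RPKM + 1, the largest falls were in Ces3a and Ces3b, paralogs whose products are hydrolases of the liver endoplasmic reticulum. Ces3a (chr8:105048601-105058413, 13 exons) was listed at 1193, 1229 and 1288 RPKM in Con mice 1, 2 and 3, and at 5.08, 9.34 and 538 RPKM in the STZ mice. All STZ mice were below all Con mice, mice 1 and 2 far more so than mouse 3. The log2 change of RPKM + 1 was -5.26 (SE 1.23, adjusted p 0.0074), or -5.47 relative to the median gene, and -7.29 (SE 0.25) without STZ mouse 3. As a ratio of means the STZ level was 14.9% of the Con level for Ces3a and 20.5% for Ces3b, and by that measure the lowest of the 10 was Ces4a (below). Since these are bulk livers, fewer cells that express a gene and less of its RNA per cell cannot be told apart.

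In the AOS pair of groups the same gene stood at 1089, 1269 and 1236 RPKM in AOS mice and at 29.4, 106 and 279 RPKM in STZ+AOS mice. The groups did not overlap, and the log2 change was -3.63 (SE 1.15, adjusted p 0.023). The call was lost without STZ+AOS mouse 1 (-2.79, adjusted p 0.093), AOS mouse 2 (adjusted p 0.061) or AOS mouse 3 (adjusted p 0.058) and with no filter on low values (adjusted p 0.052). Both transplanted groups held middle levels of Ces3a. A10-FMT mice had 610.3, 727 and 668 RPKM and Con-FMT mice 435, 798 and 618 RPKM, on average 54.0% and 49.9% of the Con mean. The order of the group means was Con, AOS, A10-FMT, Con-FMT, STZ and STZ+AOS. Only AOS and A10-FMT, among neighbours in that order, had ranges that did not overlap.

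Ces3b (chr8:105083753-105093929, 13 exons) had 327, 391 and 380.0 RPKM in Con and 3.86, 13.6 and 207 RPKM in STZ. As with Ces3a, STZ mice 1 and 2 were far below every other liver and mouse 3 was nearer to the transplanted ones. The log2 change was -3.90 (SE 0.99, adjusted p 0.011), and -5.44 (SE 0.42) without mouse 3. AOS mice had 327, 385 and 367 RPKM and STZ+AOS mice 40.3, 55.3 and 81.9 RPKM. There was no overlap, and the change on the log2 scale was -2.64 (SE 0.86, adjusted p 0.025), a call also lost without STZ+AOS mouse 1 (adjusted p 0.071) or mouse 2 (adjusted p 0.051), without AOS mouse 1, 2 or 3 (adjusted p 0.051 to 0.068) and with no filter (adjusted p 0.057). In A10-FMT the level was 234, 291 and 324 RPKM, and in Con-FMT 136, 323 and 220 RPKM. The order of the 6 group means was that of Ces3a, with the same single gap between AOS and A10-FMT.

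The 2 genes moved together over the 18 livers (Pearson r 0.983 on the log2 scale, and 0.948 after the group means were removed, given as a description). Their proportion did change. Ces3a stood at 3.15 to 3.65 times the Ces3b level in Con and 3.29 to 3.37 times in AOS, but at 1.32, 0.69 and 2.60 times in STZ mice 1, 2 and 3 and at 0.73, 1.91 and 3.41 times in STZ+AOS mice. Ces3a was at 2.06 to 2.61 times Ces3b in A10-FMT mice, below every Con mouse, and at 2.475 to 3.19 times in Con-FMT mice. In STZ mouse 2 and STZ+AOS mouse 1 the usual order was thus turned and Ces3b was the higher. Their longest coding transcripts are 95.4% identical over 2046 aligned bases, and 30.9% of the 50-base windows of Ces3a occur unchanged in Ces3b (26.1% the other way), a window length chosen here, since the read length is not given in the sources used here. The split of reads between the 2 genes is uncertain to the extent that reads fall within such stretches.

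**Figure D1:**
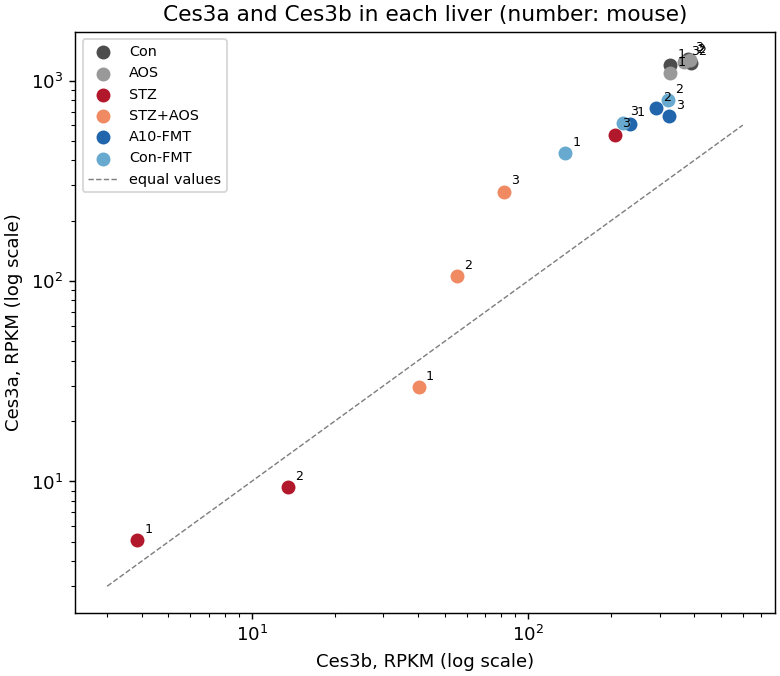
Ces3a (vertical axis) against Ces3b (horizontal axis) in RPKM, both on log scales, for each of the 18 livers, with the mouse number beside the point and a dashed line where the values are equal. Con and AOS livers crowd at the top right, the transplanted livers and STZ mouse 3 lie below them, and STZ mouse 2 and STZ+AOS mouse 1 lie under the line.

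Ces4a (chr8:105131800-105150109, 14 exons) was the least abundant of the 10. Con mice had 3.23, 2.09 and 3.01 RPKM and AOS mice 0.38, 1.13 and 0.68 RPKM, while STZ mice 1 and 2 were listed at 0 and mouse 3 at 0.25 RPKM. STZ+AOS mice had 0.11, 0.09 and 0.11 RPKM, A10-FMT mice 0, 0.08 and 0.03 RPKM, and Con-FMT mice 0.06, 0.19 and 0.36 RPKM. Every liver that had streptozotocin, transplanted or not, was below every liver that had not, and AOS livers were below Con livers without overlap. Log2 changes were -1.80 for STZ against Con (SE 0.15, adjusted p 9.0e-05) and -0.63 for STZ+AOS against AOS (SE 0.16, adjusted p 0.0068). At such low values the added 1 RPKM shrinks a log2 change, and the gene passed the filter on low values only through the Con mice and 1 AOS mouse, where it was high. No 50-base window of its transcript was shared with another carboxylesterase.

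Ces1e (chr8:93201218-93229619, 14 exons) encodes egasyn, the esterase that holds beta-glucuronidase in the endoplasmic reticulum. Its levels were 55.0, 130 and 92.6 RPKM in Con and 52.1, 28.9 and 38.3 RPKM in STZ. The highest STZ mouse lay just below the lowest Con mouse, and the log2 change was -1.15 (SE 0.28, adjusted p 0.0093). In AOS mice the level was 137, 100 and 119 RPKM and in STZ+AOS mice 40.4, 45.8 and 30.3 RPKM, which gave -1.60 (SE 0.27, adjusted p 0.00065) and a wide gap. A10-FMT mice had 55.0, 75.2 and 61.7 RPKM and Con-FMT mice 50.9, 53.6 and 42.1 RPKM. The order of means was AOS, Con, A10-FMT, Con-FMT, STZ and STZ+AOS, and of the neighbours only A10-FMT and Con-FMT did not overlap.

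Ces1c (chr8:93099015-93131283, 13 exons), the carboxylesterase that mouse liver secretes into plasma, was the most abundant of the 10 by mean level in each group. It had 1155, 1455 and 1299 RPKM in Con, 1075, 849 and 998 RPKM in STZ, 1568, 1575 and 1559 RPKM in AOS and 697, 867 and 1128 RPKM in STZ+AOS. Its fall was small, to 74.7% of the Con mean and to 57.3% of the AOS mean, without overlap in either pair. The log2 changes were -0.42 (SE 0.14, adjusted p 0.039) and -0.83 (SE 0.16, adjusted p 0.0016), and the first was lost when only the Con and STZ mice were fitted (adjusted p 0.15) or all 6 groups together (adjusted p 0.053), and without STZ mouse 2, Con mouse 2 or Con mouse 3 (adjusted p 0.098 to 0.14). A10-FMT mice had 1296, 1241 and 1365 RPKM, 99.9% of the Con mean, and Con-FMT mice 1008, 1137 and 1075 RPKM. In the order AOS, Con, A10-FMT, Con-FMT, STZ and STZ+AOS, AOS lay clear of Con and A10-FMT clear of Con-FMT. Of its 50-base windows, 13.4% are shared with other family members, mostly Ces1b.

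Ces1f (chr8:93256236-93279747, 14 exons), another hydrolase of the endoplasmic reticulum, had 156, 322 and 238 RPKM in Con and 129, 81.9 and 248 RPKM in STZ. Those groups overlapped, and a log2 change of -0.73 (SE 0.40, adjusted p 0.17) did not pass, although without STZ mouse 3 it was -1.15 (adjusted p 0.022). AOS mice were tightly grouped at 355, 400.4 and 367 RPKM, above all 15 other livers, and STZ+AOS mice had 40.8, 162 and 127 RPKM. This difference was -1.97 on the log2 scale (SE 0.46, adjusted p 0.0047). A10-FMT mice had 176, 227 and 199 RPKM and Con-FMT mice 95.3, 219 and 159 RPKM. AOS was clear of the next group, Con, and the ranges of Con, A10-FMT, Con-FMT, STZ and STZ+AOS, in that order, overlapped from each to the next.

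Ces1d (chr8:93166068-93197838, 14 exons), also called triacylglycerol hydrolase, releases stored triacylglycerol for VLDL assembly. It stood at 189, 333 and 263 RPKM in Con and at 409, 181 and 198 RPKM in STZ. STZ mouse 1 held the highest value of all 18 livers and the other STZ mice were near the low end of Con, so the means were within 1% of each other and the log2 change was -0.06 (SE 0.31, adjusted p 0.90). AOS mice had 276, 289 and 266 RPKM and STZ+AOS mice 177, 220 and 197 RPKM, which did not overlap but did not pass the test (log2 change -0.49, SE 0.27, adjusted p 0.17). It did pass with median-ratio scaling (-0.74, adjusted p 0.049) and with only the AOS and STZ+AOS mice fitted (adjusted p 0.034). With 162, 215 and 293 RPKM A10-FMT overlapped Con, whereas Con-FMT, at 167, 138 and 155 RPKM, lay below it and below every other group's mean. Only STZ+AOS and Con-FMT, the lowest pair in the order AOS, STZ, Con, A10-FMT, STZ+AOS and Con-FMT, had ranges that did not meet.

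Ces1g (chr8:93302369-93337308, 14 exons), a hydrolase known to hold back hepatic lipogenesis and VLDL secretion, was the only one of the 10 whose estimate was positive in STZ+AOS against AOS. Con mice had 75.5, 97.3 and 88.9 RPKM and STZ mice 127, 36.3 and 38.8 RPKM, and AOS mice had 72.7, 47.7 and 55.6 RPKM and STZ+AOS mice 128, 96.8 and 51.1 RPKM. Spread within the streptozotocin groups exceeded the distance between means. Neither the change of -0.61 (SE 0.42, adjusted p 0.27) in the first pair nor that of 0.56 (SE 0.42, adjusted p 0.30) in the second passed. Without STZ mouse 1 the first was -1.19 (adjusted p 0.014). A10-FMT mice, at 156, 120.0 and 149 RPKM, were above all Con mice, and Con-FMT mice ranged over 156, 88.7 and 65.3 RPKM. Of all 10602 genes tested, 5183 did not overlap between A10-FMT and Con, and 760 of these were lower in A10-FMT. All neighbours in the order A10-FMT, Con-FMT, STZ+AOS, Con, STZ and AOS overlapped.

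Ces2a (chr8:104734003-104741634, 12 exons) encodes a hydrolase of acylglycerols and ester prodrugs. Con mice varied from 23.0 RPKM in mouse 1 to 141 RPKM in mouse 2, with 78.9 RPKM in mouse 3, and STZ mice had 27.1, 45.9 and 127 RPKM. Such a spread left the change between them unresolved (log2 change -0.23, SE 0.61, adjusted p 0.79), or -0.84 (SE 0.56, adjusted p 0.24) without STZ mouse 3. AOS mice had 81.7, 167 and 132 RPKM and STZ+AOS mice 33.0, 26.2 and 45.3 RPKM, apart from each other, with a log2 change of -1.81 (SE 0.55, adjusted p 0.019), or an adjusted p of 0.055 without STZ+AOS mouse 2. In A10-FMT the level was 36.6, 49.0 and 37.5 RPKM and in Con-FMT 49.3, 63.6 and 41.9 RPKM. Ranges of neighbours in the order AOS, Con, STZ, Con-FMT, A10-FMT and STZ+AOS overlapped throughout.

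Ces2e (chr8:104926260-104934672, 12 exons), of the same group, was the steadiest. It had 67.7, 89.7 and 76.5 RPKM in Con, 66.8, 60.1 and 89.6 RPKM in STZ, 94.4, 80.1 and 85.3 RPKM in AOS, and 81.2, 95.5 and 60.3 RPKM in STZ+AOS. A10-FMT mice had 85.0, 89.7 and 57.0 RPKM and Con-FMT mice 90.6, 92.8 and 82.2 RPKM. All 6 group means lay between 72.1 and 88.5 RPKM and all neighbouring ranges overlapped. The log2 changes were -0.12 (SE 0.19, adjusted p 0.63) in STZ against Con and -0.15 in STZ+AOS against AOS.

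**Figure D2:**
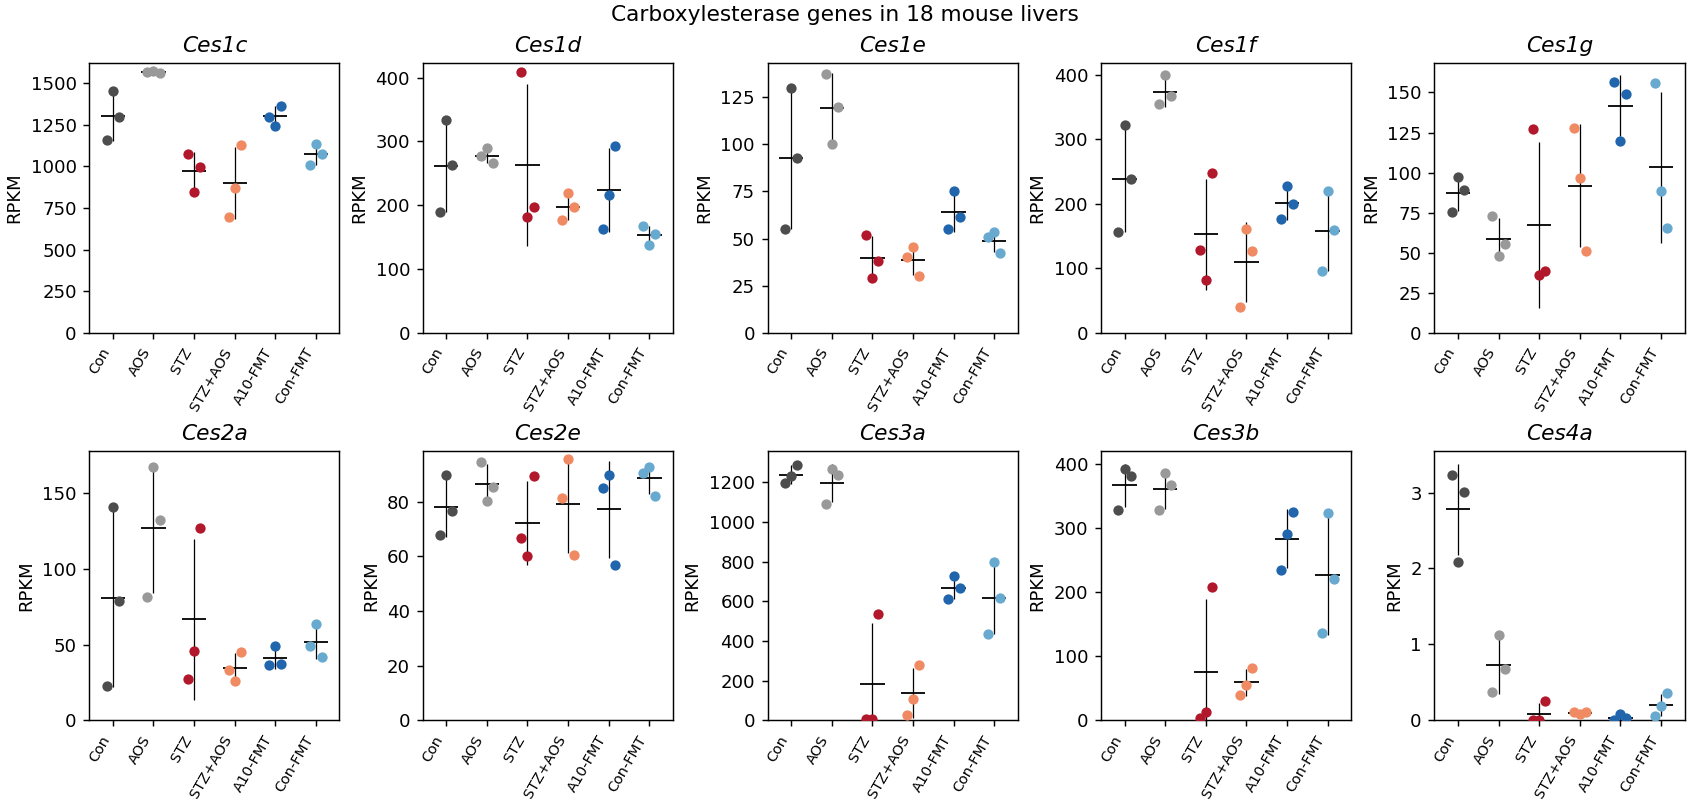
RPKM (vertical axes, linear and starting at 0, each with its own scale) of the 10 genes in the 6 groups, 1 point per mouse, with the mean (horizontal bar) and SD (vertical line, n = 3). Ces3a, Ces3b and Ces4a show the deepest falls in STZ and STZ+AOS, and Ces2e stays between 57.0 and 95.5 RPKM in all livers.

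Counting the genes asks how far the family moved with streptozotocin. Diabetes and a direct effect of streptozotocin on the liver cannot be told apart here. In STZ against Con, 5 of the 10 were called at an adjusted p under 0.05 and all 5 were lower (Ces1c, Ces1e, Ces3a, Ces3b and Ces4a). Ces4a entered this fit only through the Con mice, where it was high, and without it the count was 4 of 9. Of all genes tested, 38.5% were called in either direction and 5.52% were called lower. The same 5 were those whose STZ and Con values did not overlap, which was so for 6.98% of all genes in the lower direction. The median log2 change of the 10 was -0.67, and that of all 10602 genes tested was 0.21. This shift of all genes is part of the deposited scale: of the 4087 genes called, 3502 were higher and 585 lower, but 1484 were higher and 1389 lower after quantile normalization. The 5 carboxylesterase calls were kept in number under quantile normalization, median centring and median-ratio scaling. All 10 estimates were negative under each, as they already were on the deposited scale. These scalings take away the shared upward shift (median gene at -0.0073, -0.032 and -0.0097). That left the signs little room to change, so they are no separate check. Without STZ mouse 3, 6 of the 10 were called, all lower, and so were 5012 of 10580 genes, 802 of them lower. Over all genes the count was lowest without Con mouse 1 (2562) and STZ mouse 2 (2630). The 4 members not called without STZ mouse 3 had changes of -0.84 (Ces2a), -0.34 (Ces1g), -0.29 (Ces2e) and 0.10 (Ces1d).

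In STZ+AOS against AOS, a pair of groups that shares no mouse with STZ and Con, 7 were called and all 7 were lower (Ces1c, Ces1e, Ces1f, Ces2a, Ces3a, Ces3b and Ces4a), or 6 of 9 without Ces4a, which passed the filter only through the Con mice and 1 AOS mouse. Here 37.9% of all genes were called in either direction and 6.11% were lower. These 7 and Ces1d did not overlap between the groups, against 8.61% of all genes in that direction. The median over the 10 was -1.22, over all 10822 genes 0.21, and the split of all calls was 3441 higher and 661 lower, or 1382 and 1347 after quantile normalization. The count was 5 without STZ+AOS mouse 1 or mouse 2 and fell to 4 without AOS mouse 2 or AOS mouse 3, when Ces3a, Ces3b and Ces2a had adjusted p from 0.055 to 0.075. Over all genes those 4 fits called 3732, 4045, 2767 and 2955, against 4102 with every mouse. When the 2 streptozotocin effects were tested against each other, none of the 10 and 0% of all genes were called by limma. Unadjusted, 584 genes had a p under 0.05, and 1 of them was among the 10 (Ces4a, difference 1.17, SE 0.22, adjusted p 0.86). Since Ces4a was near 0 in STZ and STZ+AOS alike, that difference restates its gap between Con and AOS. Differences for Ces3a (1.63), Ces2a (-1.59), Ces3b (1.26), Ces1f (-1.24) and Ces1g (1.17) were of similar size or larger but had SEs of 1.63, 0.78, 1.22, 0.65 and 0.60. Without STZ mouse 3 they were 3.66, -0.98, 2.80, -0.82 and 0.91, still with none of the 10 and 0 of 10808 genes called.

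**Figure D3:**
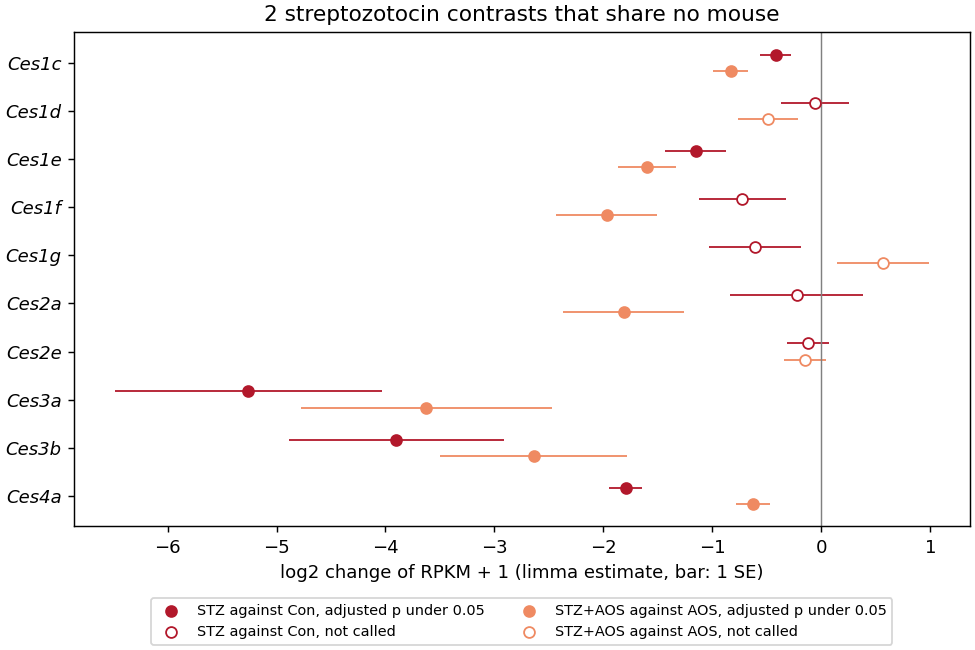
Log2 change of RPKM + 1 (horizontal axis, limma estimate with a bar of 1 SE) of the 10 genes in STZ against Con (dark red) and in STZ+AOS against AOS (orange), with filled points where the adjusted p was under 0.05. Ces3a and Ces3b lie farthest to the left in both, and Ces1g is the gene whose points fall on opposite sides of 0.

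The transplanted groups were then set against STZ mice. The study's methods describe no oral vehicle for STZ mice, so the microbiota and the oral dosing itself cannot be told apart. In A10-FMT against STZ none of the 10 was called, and 0.226% of all genes were (24 of 10602). At an unadjusted p under 0.05 stood 20.9% of all genes in either direction and 5 of the 10, all higher: Ces3a (log2 change 4.37, SE 1.23, adjusted p 0.10), Ces3b (3.52, SE 0.99, adjusted p 0.10), Ces1g (1.30, adjusted p 0.14), Ces1c (0.42, adjusted p 0.15) and Ces1e (0.70, adjusted p 0.19). Of these, Ces1g overlapped between the groups and the other 4 did not, as was so for 7.61% of all genes in the higher direction. STZ mouse 3 decides the Ces3 calls: without it the changes were 6.40 for Ces3a (adjusted p 7.4e-07) and 5.06 for Ces3b (adjusted p 0.00011), and both were called, as were 1343 of all 10580 genes in that fit. STZ mouse 1 decides Ces1g, which without it was 1.88 higher (adjusted p 0.024). Ces4a was at or near 0 in both groups and is not compared.

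Con-FMT against STZ gave the same count of 0 among the 10, and 0.00943% of all genes were called (1 of 10602). Among the 10, Ces3a and Ces3b had an unadjusted p under 0.05, a share like the 20.1% of all genes, with log2 changes of 4.21 (SE 1.23, adjusted p 0.11) and 3.13 (SE 0.99, adjusted p 0.13). Their groups overlapped, since STZ mouse 3 was above Con-FMT mouse 1 in both genes, and without that mouse the changes were 6.24 and 4.67 and both were called, together with 1636 of all 10580 genes. For Ces1d the 3 Con-FMT mice were below the 3 STZ mice (-0.68, SE 0.31, adjusted p 0.26), an order that 9.38% of all genes showed. Both contrasts use the same STZ mice.

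Set against healthy livers, the single member called in each transplanted group was Ces4a, which passed the filter there only through the Con mice, where it was high, so its call is a description. None of the other 9 was called on the deposited scale, where 18.4% of all genes were called in A10-FMT against Con and 19.4% in Con-FMT against Con. Leaving out 1 mouse lowered these counts, from 1953 genes to between 547 and 1153 without Con mouse 1, Con mouse 3 or any A10-FMT mouse, and from 2059 to between 603 and 1001 without Con mouse 1 or 3 or Con-FMT mouse 1 or 3. The 2 contrasts share the Con mice, and the Ces4a estimates were -1.85 and -1.64 (SE 0.15 each). Ces1e in Con-FMT (-0.83) passed with all 6 groups fitted (adjusted p 0.043) and under quantile normalization, median centring and median-ratio scaling (adjusted p 0.029 to 0.044). Ces3a was below all Con mice in every transplanted mouse, as were 7.17% and 5.22% of all genes in A10-FMT and Con-FMT, by -0.89 (SE 1.23, adjusted p 0.64) in A10-FMT and by -1.05 (SE 1.23, adjusted p 0.56) in Con-FMT. Those SEs carry the spread of the STZ group, which shares the fit. Fitted with the groups of the contrast alone, the SEs were 0.11 and 0.23 and both changes passed (adjusted p 0.0014 and 0.023). Ces1g in A10-FMT (0.69, adjusted p 0.0078) and Ces1d in Con-FMT (-0.74, adjusted p 0.043) likewise passed in that fit, which called 32.8% of all genes in A10-FMT against Con and 20.8% in Con-FMT against Con.

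Between the transplants, limma called none of the 10 and 0% of all genes in A10-FMT against Con-FMT, with 303 genes and 0 of the 10 at an unadjusted p under 0.05. All A10-FMT mice were above all Con-FMT mice for Ces1c (0.28, SE 0.14) and Ces1e (0.38, SE 0.28), each at an adjusted p over 0.99, and 2.94% of all genes showed that order. The difference for Ces3a was 0.16, with an SE of 1.23 in the shared fit and of 0.22 with the 2 transplanted groups alone (adjusted p over 0.99 in both).

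Alginate oligosaccharide in mice without streptozotocin called a single gene of all 10822 tested (0.00924%). Over all genes the count was 41 with only the Con and AOS mice fitted, and 0 to 6 with 1 mouse left out. The single gene was Ces4a, which passed the filter on low values through the Con mice and 1 AOS mouse, where it was high. Its call is thus a description. It went from a mean of 2.78 ± 0.60 RPKM in Con to 0.73 ± 0.38 RPKM in AOS (SD, n = 3), 26.3% of the Con mean. The log2 change was -1.14 (SE 0.16, adjusted p 0.027), and the adjusted p ran up to 0.30 when 1 mouse was left out and was 0.52 with 0.1 RPKM added in place of 1. Of the other 9, Ces1c and Ces1f were higher in each AOS mouse than in each Con mouse (0.27 and 0.70, adjusted p 0.78 and 0.80) and Ces1g was lower (-0.58, adjusted p 0.81), while 24.4% of all genes did not overlap in either direction. Ces3a and Ces3b were at 96.9% and 98.3% of their Con means. In STZ+AOS against STZ none of the 10 was called and 0% of all genes were, with 657 genes and 0 of the 10 at an unadjusted p under 0.05 in limma. Without STZ mouse 3, Ces3b was 2.78 higher on the log2 scale in STZ+AOS (adjusted p 0.031, 1 of 2 genes called among 10808), and Ces3a, at 3.61, was not called (adjusted p 0.076).

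Summed over the 10, the level was 3246 to 4189 RPKM in Con, 4001 to 4316 in AOS, 1306 to 2484 in STZ, 1267 to 2000.0 in STZ+AOS, 2188 to 2913 in Con-FMT and 2811 to 3155 in A10-FMT. By this sum, all streptozotocin livers were thus below all livers without it. Taken as a share of the RPKM of all genes, that separation was lost for the transplanted livers. Con mouse 1 stood at 0.402%, and A10-FMT mice 1, 2 and 3 exceeded it (0.414%, 0.426% and 0.467%). Con-FMT mouse 2 exceeded it too (0.4105%), but Con-FMT mice 1 and 3 did not (0.325% and 0.355%). STZ livers (at most 0.363%) and STZ+AOS livers (at most 0.322%) stayed below every Con and AOS liver. The make-up of the sum changed as well. Ces3a and Ces3b together made up 38.7% to 46.9% of it in Con, but 0.47%, 1.75% and 30.0% in STZ mice 1, 2 and 3 and 5.50% to 18.1% in STZ+AOS. Ces1c took the larger share instead, 34.1% to 35.6% in Con and 40.2% to 65.0% in STZ. In transplanted livers the Ces3 pair made up 26.1% to 38.5%, a range that overlapped those of STZ and AOS (35.4% to 38.3%).

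**Figure D4:**
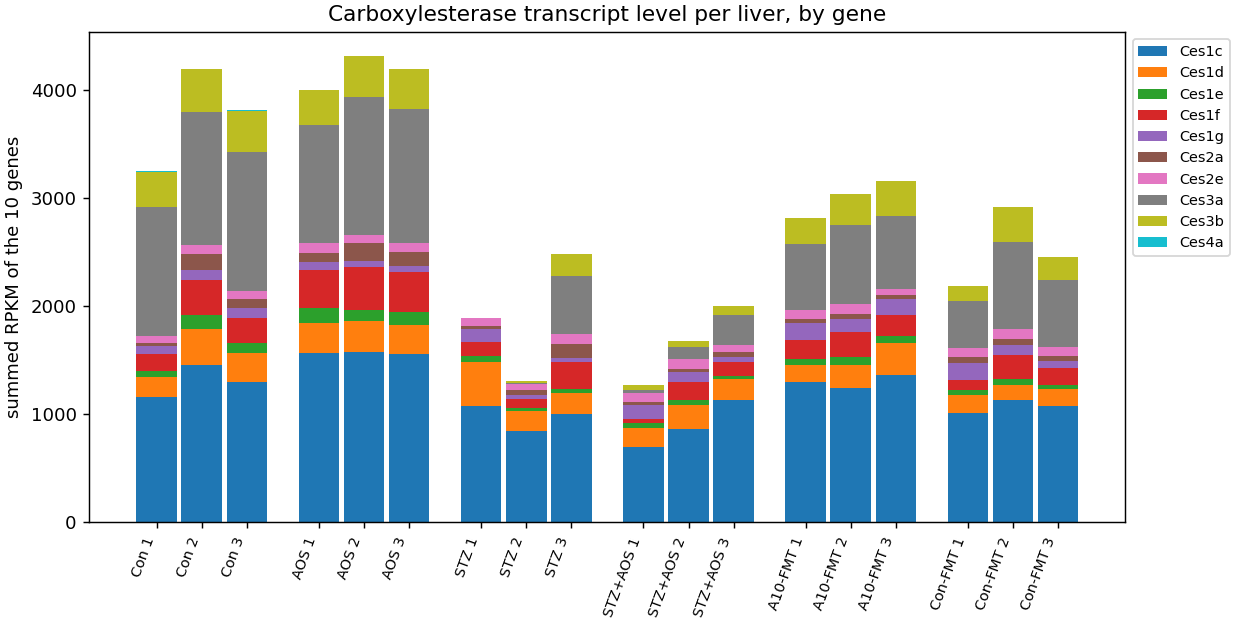
Summed RPKM of the 10 genes (vertical axis, linear from 0) in each of the 18 livers, with 1 coloured segment per gene. The Ces3a and Ces3b segments all but vanish in STZ mice 1 and 2, and Ces1c is the largest segment of the streptozotocin-only bars.

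Gene order did not sort the genes into those that fell and those that did not. Ces3a and Ces3b are adjacent and were both called lower, as was Ces4a next to them, with the limit on its call given above, but Ces2e, on the same strand and upstream of them, had a log2 change of -0.12. Within the Ces1 group, Ces1d (-0.06) and Ces1e (-1.15) are next to each other. By sequence, the Ces3a and Ces3b transcripts are the most alike (95.4% identical) and had the 2 lowest changes. Ces2a and Ces2e transcripts are 82.1% identical, with changes of -0.23 and -0.12 in STZ against Con and of -1.81 and -0.15 in STZ+AOS against AOS.

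**Figure D5:**
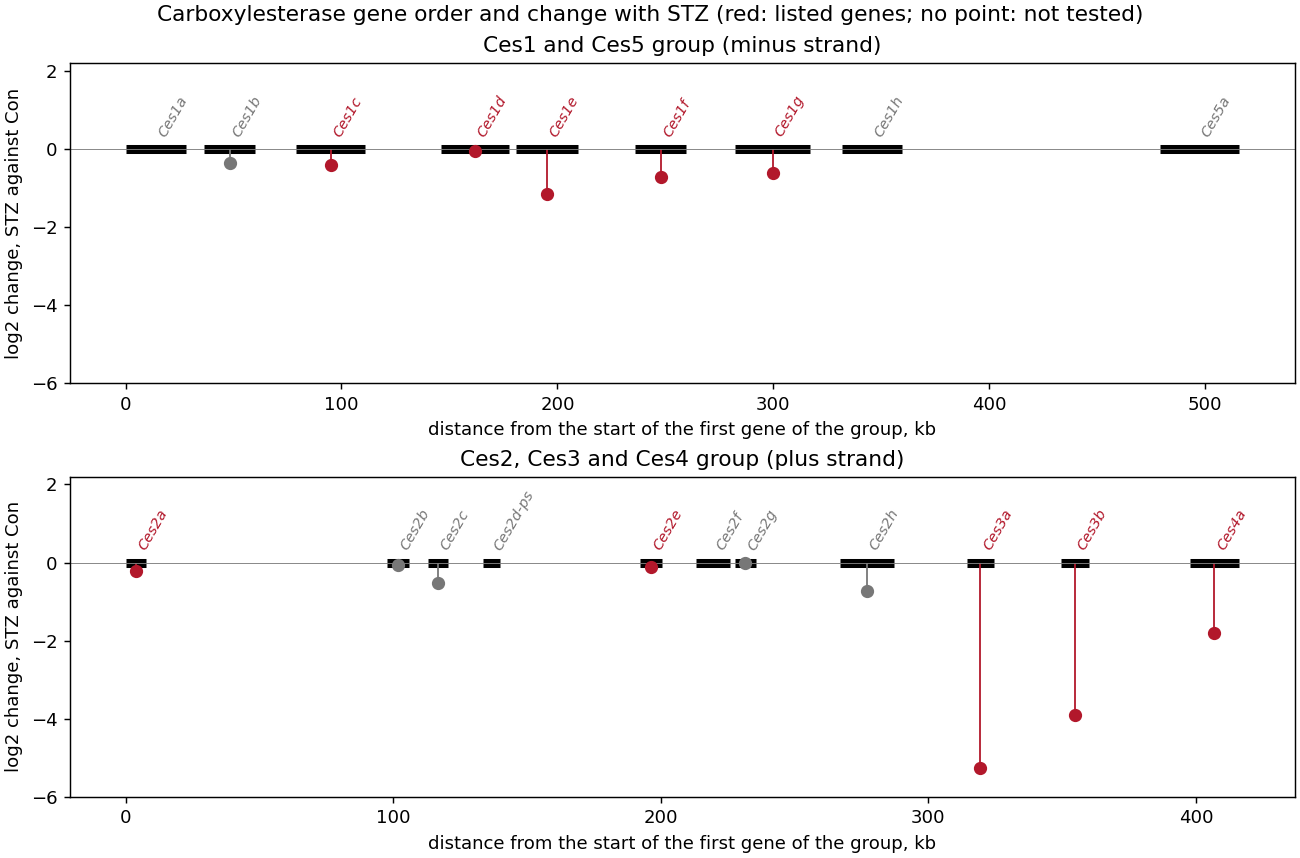
Carboxylesterase genes in their order along the chromosome (black bars, horizontal axis in kb from the first gene of each group), with the log2 change in STZ against Con (vertical axis) as a point, red for the 10 genes and grey for the others tested. The adjacent Ces3a, Ces3b and Ces4a have the 3 lowest points (-5.26, -3.90 and -1.80).

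Over the 18 livers, pairs of the 10 genes varied from a Pearson r of -0.47 (Ces1g and Ces2a) to 0.98 (Ces3a and Ces3b) on the log2 scale. Ces1c also followed Ces1f (0.88) and Ces1e (0.81), but after the group means were removed r was 0.71 and 0.24. These values describe points that share groups and libraries. Among 10807 other genes, those most like Ces3a were Mup3 (r 0.98), Cmah (0.98), Cyp2j5 (0.97), Mup16 (0.97) and Slco1a1 (0.96), which encode a pair of major urinary proteins, a sialic acid hydroxylase, a cytochrome P450 and an organic anion carrier. Those most like Ces1d were Yeats2 (0.89), Smim1 (0.80), Colec12 (0.76), Tkt (0.76) and Tpst1 (0.75), again over 18 livers.

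Other carboxylesterases were read in the same way. Of 9 more symbols in the table, Ces1b, Ces2b, Ces2c, Ces2g and Ces2h were tested. In STZ against Con limma called 0 of the 5 and 38.5% of all genes. At an unadjusted p under 0.05 stood 1 of the 5 (Ces1b, -0.37) and 5196 of all 10602 genes. In STZ+AOS against AOS only Ces1b was called (-0.55, SE 0.14, adjusted p 0.0066), where 37.9% of all genes were. Ces2h was high in A10-FMT, at 34.2, 26.4 and 39.4 RPKM, above the 15 other livers, where it ranged from 0.09 to 22.9 RPKM. Its change in A10-FMT against STZ was 2.76 (SE 0.99, adjusted p 0.16). Ces1a, Ces1h, Ces2f and Ces5a stayed under 1 RPKM in all livers and were not tested.

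Genes that act on related substrates or regulate the family were counted in the same livers (log2 changes on the deposited scale, where the median gene was at 0.21). Of 15 other lipid ester hydrolases tested in STZ against Con, 8 were higher and 1 lower (the arylacetamide deacetylase Aadac, -0.99, adjusted p 0.0032, chosen after its value was seen), among them the phosphatidate phosphatases Lpin1 (3.17, adjusted p 0.00034) and Lpin2 (2.13), the cholesteryl ester hydrolase Nceh1 (1.17) and the phospholipase Pnpla8 (0.74). Of 11 other xenobiotic ester and epoxide hydrolases, 6 were higher and 0 lower, including the microsomal epoxide hydrolase Ephx1 (1.20, adjusted p 0.00057), butyrylcholinesterase Bche (1.82), paraoxonase Pon3 (0.46) and Cmbl (0.61). Of 12 regulators with known carboxylesterase targets, 5 were higher and 0 lower, among them Nfe2l2 (0.77), Hnf4a (0.75), the xenobiotic receptor Nr1i2 (0.92) and Foxo1 (0.77). Of 12 genes of VLDL assembly and triacylglycerol synthesis, 3 were higher and 2 lower, with Tm6sf2 (1.26) and Dgat1 (0.70) up and Pdia3 (-0.78) and Agpat2 (-0.69) down. The share called over all genes was 38.5%, as above. In STZ+AOS against AOS the same 4 lists had 6 higher and 5 lower of 16, 4 and 1 of 11, 4 and 0 of 12, and 2 and 2 of 12.

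Cell type markers were read beside these results. All 10 hepatocyte markers were present in each group, and the most abundant, Alb, was at 24367 to 37253 RPKM in Con and 25070 to 36492 RPKM in STZ. In STZ against Con 4 of the 10 were higher and 3 lower. Over all genes 38.5% were called in that contrast and 5.52% were called lower, which holds for its marker counts below too. The summed level of 8 stellate cell and fibroblast markers was 99.4 to 133 RPKM in Con and 150 to 186 RPKM in STZ, with none at 0 throughout a group, and its most abundant gene, Dcn, rose by 0.72 on the log2 scale (adjusted p 0.018), the only one of the 8 called. Sums of 8 Kupffer cell and macrophage markers were 103 to 158 RPKM in Con and 152 to 307 RPKM in STZ. By mean level C1qb was the most abundant of them in Con and Cd5l in STZ. The 1 of 8 called higher was Marco (2.79, adjusted p 0.0094). Sums of 8 sinusoidal endothelial markers were 61.3 to 71.5 RPKM in Con and 72.1 to 89.7 RPKM in STZ (2 of 8 higher, most abundant gene Clec4g). Of cholangiocyte markers 1 of 3 tested was lower, of erythroid 1 of 4 lower, of pancreatic and gut 1 of 2 lower, and of lymphocyte 0 of 1. The median change of the 8 stellate markers was 0.10, below that of all genes, with Col1a1 (-0.08) and Col3a1 (-0.29) negative and not called, and Dcn (a mean of 64.9 RPKM in Con and 107 RPKM in STZ) made up most of the summed level. The part of these cell types in the fall of the carboxylesterases was not tested. STZ+AOS mouse 3 stood apart in 4 markers of exocrine pancreas. Ctrb1 was at 36.5 RPKM, Cela2a at 10.8, Pnlip at 7.23 and Cpa1 at 3.31 RPKM, while none of the 4 exceeded 1.34 RPKM in any other liver and Prss1 was listed at 0 in all. Cela1, of the same list, was at 4.39 RPKM in that mouse, near the 3.10 and 4.16 RPKM of the other STZ+AOS mice and below the 30.6 to 48.8 RPKM of Con and AOS mice. Without that mouse 7 of the 10 carboxylesterases were again called lower in STZ+AOS against AOS, and 3457 of 10773 genes were called, 545 of them lower. Summed over the 10 pancreatic and gut markers, STZ+AOS mice had 29.7 to 82.5 RPKM and AOS mice 94.3 to 117 RPKM, with Fabp2 the most abundant and both genes tested lower. RPKM summed over all genes was 749600 to 806900 in Con and 631100 to 684700 in STZ.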

How the data were processed

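The deposited table held RPKM values, which the authors computed from the read number of each gene in 18 liver libraries (poly(A) RNA). The submitters' processing notes name Bowtie 0.12.2 and mm10, while the study's methods name SOAPaligner, so the aligner is uncertain. The deposited RPKM values keep no total reads. Relative depth, read from the smallest steps of 43 genes, was 0.932 to 1.06. The table was scaled no further. Genes that reached 1 RPKM in 3 or more libraries of a fit were tested with limma 3.58.1 (R 4.3.3; lmFit, eBayes with trend, two-sided) on log2(RPKM + 1), which understates the change of low genes. Benjamini-Hochberg adjustment ran over all genes of each contrast, and calls needed an adjusted p under 0.05. Contrasts among Con, STZ, A10-FMT and Con-FMT used those 12 libraries, and the others all 18. The code was tested on simulated data. Members and lists were chosen with earlier results of these data known. Named genes were all 10 members, the other carboxylesterases, the 4 of each function list that ranked first by adjusted p for STZ against Con, and the 5 genes most correlated with the members of highest and lowest change. Gene positions came from GENCODE on GRCm38, motifs and identities from Python 3.11.15 and Biopython 1.88. Protein sequences were not analysed here. Labels number the mice of each group 1 to 3 and name no litters or batches, so p-values measure the spread between these mice. Same-numbered mice showed no clear shared deviation (mean r 0.039, and -0.020 for mice of other numbers), and the check does not settle whether the numbers pair them.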

Additional observations from a re-analysis of the deposited data

How the results depend on the processing

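No result changed sign among called values. For single genes outside mouse removal, 926 values kept their side of the threshold, 9 dropped under it and 10 rose past it. The study set its limits (adjusted p of 0.001 or less, 2-fold) on results of another program, DEGseq. Here they were applied to the limma results, so the counts are not those of the study's own test. Under these limits the number of the 10 genes called fell from 5 to 1 in STZ against Con. It fell from 7 to 1 in STZ+AOS against AOS and from 1 to 0 in AOS against Con. In STZ against Con the 1 left was Ces4a, which passed the filter only through the Con mice, where it was high. In STZ+AOS against AOS it was Ces1e. Ces4a was the gene called in the contrasts of A10-FMT, Con-FMT and AOS with Con, and requiring 1 RPKM in every library removed it, leaving 0 in each. AOS against Con also fell to 0 with median centring, a pseudocount of 0.1 RPKM or only the groups of the contrast. Fits with only the groups of the contrast called 3 in A10-FMT against Con and 3 in Con-FMT against Con, where 32.8% and 20.8% of all genes were. Con-FMT against Con had 2 under quantile normalization, median centring, median-ratio scaling and all 6 groups, Ces1e being gained. With a replicate block (a term for mouse number) AOS against Con had 0 and STZ against Con 4, Ces1c being lost (adjusted p 0.073). Whether the numbers pair the mice is not stated and was not settled. Same-numbered mice correlated at -0.25 to 0.47 (16 of 45 over 0.1), and 9 of 18 livers matched their own number best. The block changed no other count. Leaving out 1 mouse gave 3 to 6 in STZ against Con, 4 to 7 in STZ+AOS against AOS, 0 to 2 in A10-FMT against STZ, 0 to 2 in Con-FMT against STZ, 0 to 1 in Con-FMT against Con, 0 to 1 in A10-FMT against Con, 0 to 1 in AOS against Con and 0 to 1 in STZ+AOS against STZ. Without Con mouse 2 or 3, Ces4a failed the filter on low values and Ces1c was not called, and 3 remained called in STZ against Con. Across all genes, fits of only the groups of the contrast called 2651 in STZ against Con and 2483 in STZ+AOS against AOS, and the study's limits 191 and 298. In A10-FMT against STZ scaling raised 24 calls to 47 (quantile) and 77 (median centring and median-ratio), only its own groups gave 1, all 6 groups 53 and 1 RPKM in every library 44. In Con-FMT against STZ 1 call became 73, 94 and 73 under the 3 scalings. Without STZ mouse 3 these 2 contrasts called 1343 and 1636 genes. Without any other single mouse of their own groups the counts were 0 to 113 and 0 to 17. Only mice of a contrast's own groups were left out in such fits. Quantile normalization left 1109 calls in A10-FMT against Con and 824 in Con-FMT against Con. With 3 mice a group and values below 1 RPKM for Ces4a, small changes could not be resolved. The causes were not tested.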
